A study of Mus musculus with 28 samples.

Results

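The 4 features described here are predicted mouse transcripts that carry only model names: Gm27501, Gm47106, Gm37903 and Gm38356. They were taken by symbol from the 53801 features of a TPM table (a relative abundance per unit of transcript length that sums to the same total in each library) and were selected on 1 measured contrast, a strong fall of their TPM in treated against control GBM (glioblastoma) libraries. The libraries are bulk RNA-seq of sorted CD4+ regulatory T (Treg) cells, gated as TCR+, CD4+, CD25hi and CD127lo with CD8+ T cells discarded. The cells came from the spleen or from CT2A tumors, a murine GBM line, growing in the forebrain of C57BL/6 mice, and the design text says that individual samples came from different mice. The labels nonetheless repeat numbers whose meaning is not given, within groups (79_a to 79_d are 4 of the 7 splenic IgG2a libraries) and between the tissues (spleen_79_a and tumor_79_a). All mice carried a tumor. When it had reached 2 mm3 they were assigned at random to IgG2a, the control antibody, or to antibodies against PD1 and GITR (αPD1 + αGITR, written aPD1+aGITR in the plots), given as 4 doses of 250 µg every 3 days. Tissue was taken 2 days after the last dose, and the ages of the mice are not given in the sources used here. The groups held 5 GBM libraries after IgG2a, 7 GBM libraries after αPD1 + αGITR, 7 splenic libraries after IgG2a and 8 splenic libraries after αPD1 + αGITR. The study asked how the combined antibodies change Treg cells in the tumor and in the spleen.

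Gm numbers are placeholders that genome annotators give to gene models with no assigned function. Many such models lie on copies of retrotransposons, mobile elements that spread through the genome by way of an RNA, and a transcript counter then has to divide reads among many near-identical models. Satellite repeats, short units repeated in long arrays near centromeres, are another source of Gm models, and Gm10800 is the most familiar of these in mouse RNA-seq tables.

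In the GENCODE vM21 annotation of GRCm38 (mm10) the 4 members lie on 4 chromosomes, all on the minus strand. Gm27501 (ENSMUSG00000098452.1) is annotated as a miRNA gene of 107 bases at chr13:66586810-66586916, in no other annotated gene. The nearest protein-coding gene on the side of higher coordinates is Uqcrb, a subunit of respiratory complex III, 313701 bases away. On the other side 2410141K09Rik is nearer, at 145692 bases, but is not among the features measured. Gm47106 (ENSMUSG00000111044.1) is annotated as an antisense transcript of 2 exons and 832 bases at chr9:105064805-105088286, on the strand opposite to the mitochondrial ribosomal protein gene Mrpl3. Mrpl3 spans chr9:105053239-105079888, so only the 24-base second exon of Gm47106 lies within that gene. The first exon of Gm47106, chr9:105087479-105088286, lies outside Mrpl3 and within the processed pseudogene Gm47102 on the opposite strand. Gm37903 (ENSMUSG00000103070.1) is a single exon of 2381 bases at chr1:137528850-137531230 with the biotype TEC, an annotation still to be tested by experiment. It lies between Nr5a2, a nuclear receptor gene 568402 bases away, and Ptprc, which encodes CD45, 531631 bases away. Gm38356 (ENSMUSG00000103318.1) is a processed pseudogene of 408 bases at chr3:66907359-66907766, 63961 bases from the homeobox gene Shox2.

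The sequences show that the members are not single-copy genes. The Gm27501 transcript is printed with its closest copy, the gene Gm27341, in which the capital marks the 1 base of 106 that is unlike Gm27501.
Gm27501: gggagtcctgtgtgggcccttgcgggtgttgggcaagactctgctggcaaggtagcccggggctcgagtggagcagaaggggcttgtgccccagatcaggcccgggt
Gm27341: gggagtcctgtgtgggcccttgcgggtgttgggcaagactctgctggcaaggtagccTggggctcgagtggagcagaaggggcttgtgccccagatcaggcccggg

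Gm37903 and Gm47106 share sequence with each other. Bases 1428 to 1577 of Gm37903 are printed with bases 1 to 150 of Gm47106, where capitals mark the 4 of 150 bases that are unlike Gm37903.
Gm37903: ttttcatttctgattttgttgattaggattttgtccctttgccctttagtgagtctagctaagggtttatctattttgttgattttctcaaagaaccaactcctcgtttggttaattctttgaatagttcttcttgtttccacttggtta
Gm47106: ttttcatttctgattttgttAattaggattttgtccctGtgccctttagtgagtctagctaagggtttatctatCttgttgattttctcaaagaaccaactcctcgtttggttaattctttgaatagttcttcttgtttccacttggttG

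The first 150 bases of Gm38356 are printed as an example of a stretch that recurs in olfactory and vomeronasal receptor transcripts.
Gm38356: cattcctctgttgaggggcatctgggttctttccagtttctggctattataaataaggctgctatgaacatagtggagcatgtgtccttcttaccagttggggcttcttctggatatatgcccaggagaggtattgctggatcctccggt

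The second exon of Gm47106, chr9:105064805-105064828, is 24 bases long, and its capitals mark the 13 bases that equal the start of a widely used sequencing adapter.
Gm47106: taacttctctaAGATCGGAAGAGC

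This run stood in transcripts of 3 of 55341 annotated genes and ended a transcript of Gm47106 alone. The libraries here were made with another adapter design, Nextera, and whether any read covered this exon cannot be seen in TPM.

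Each member had near-identical copies among the annotated transcripts, counted as matches of at least 90% identity over at least 80% of its length. There were 28 genes with a copy of Gm27501, 60 with a copy of Gm47106, 46 with a copy of Gm37903 and 129 with a copy of Gm38356. Of these, 27, 57, 45 and 121 are features of the table. For Gm38356, 6 copies were identical in the matched part, and for Gm47106 1 was. Among the copies of Gm38356 are transcripts of receptor genes such as Olfr1250, Olfr539 and Vmn1r76, which nasal sensory neurons use to detect odorants and pheromones. For Gm47106, 50 of 60 copies matched on the opposite strand, as did 40 of 46 for Gm37903. The longest open frame of Gm37903 ran over 592 codons on the opposite strand against 111 codons on its own. No member matched a feature of the satellite repeat list (13 Gm features, Gm10800 among them).

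Sequences like all 4 members also occur together on a single annotated transcript. The 6046-base antisense transcript Gm47578 matched Gm38356 at bases 661 to 1068 with 98.0% identity, Gm37903 at bases 1697 to 4076 with 96.9%, Gm47106 at bases 3124 to 3940 with 98.9%, and Gm27501 at bases 5687 to 5790 and again at 5885 to 5998 with 90.6% and 90.4%. All 5 matches were on the same strand. As background, sequence of the kind found in the 3 longer members is known from long interspersed elements (LINE-1), read against the direction of their reverse transcriptase gene. The members were not matched to a library of repeats here. Because RSEM shares reads among copies by an estimate, a value below is the part of a family's reads given to one member. The Smart-Seq2 protocol does not mark strand, so reads of Gm47106 and of Gm47102 cannot be told apart by strand either.

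**Figure D1:**
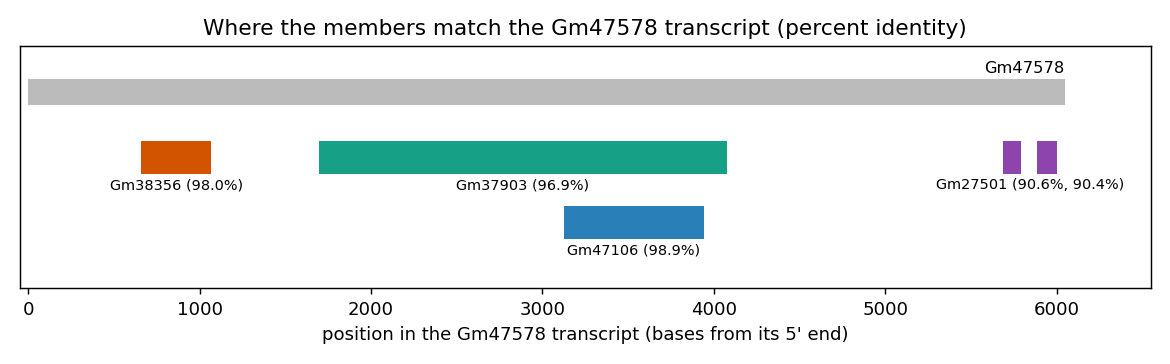
Matches of the 4 members on the Gm47578 transcript, with bases from its 5′ end on the x axis and percent identity beside each name. Gm37903 and Gm47106 cover the same stretch, Gm38356 lies before them, and Gm27501 matches at 2 places near the 3′ end.

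The libraries differed in ways that touch the members. The satellite repeat list took between 1.41% and 63.1% of all TPM, and the feature CT010467.1, a ribosomal RNA model, between 13.9% and 53.7%. In each library all 7 Treg and T cell markers (Foxp3, Il2ra, Ctla4, Ikzf2, Cd4, Cd3e and Cd3d) were above 0. One IgG2a GBM library, tumor_79_a, stood apart with a satellite share of 5.37%, against 29.5% to 35.0% in the other 4, and with a summed level of 8 macrophage and microglia markers of 2842 TPM, against 44.9 to 187.8 TPM. One treated GBM library, tumor_73_b, had a satellite share of 22.1% against 2.60% to 8.97% in the other 6, and another, tumor_73_a, had 1625 TPM of the macrophage and microglia markers against 25.7 to 192.4 TPM. The IgG2a GBM library tumor_369_a had 7702 features above 1 TPM, the fewest of all 27, where the others had between 10175 and 17460. The part of any of these in the members' values was not tested, but values without these libraries are given.

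Gm47106, the model annotated as antisense, had the 5 IgG2a GBM values 346.8, 350.8, 457.4, 601.4 and 1193 TPM. In the 7 treated GBM libraries its lowest value was 27.6, its median 43.2 and its highest 363.8 TPM. Of the treated libraries, 6 lay below every IgG2a library, and the exception was tumor_73_b. The means were 589.9 ± 352.8 TPM (SD, n = 5) after IgG2a and 106.8 ± 121.2 TPM (SD, n = 7) after αPD1 + αGITR. On the log2(TPM + 1) scale the mean difference was -2.90 with a standard error of 0.59.

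Gm37903, the longest of the members, ran from 362.6 through 441.4, 569.8 and 642.1 to 1113 TPM in IgG2a GBM. The treated GBM libraries spanned 47.7 to 507.3 TPM with a median of 71.2 TPM. Again 6 of 7 treated libraries lay below all 5 controls. The log2 difference was -2.43 with a standard error of 0.54.

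Gm38356, the processed pseudogene, had the highest level of these 3, at 491.4, 538.8, 877.2, 1100 and 1573 TPM in IgG2a GBM. After treatment the lowest value was 74.4, the median 117.2 and the highest 634.8 TPM. The treated library tumor_73_b exceeded 2 of the 5 controls and the other 6 were under all of them. The log2 difference was -2.33 with a standard error of 0.52.

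Gm27501, the model annotated as a miRNA, was either at 0 or well above it. It was listed at 0 in all 7 treated GBM libraries and in the IgG2a library tumor_79_a, and at 113.9, 401.3, 764.6 and 1665 TPM in the other 4 IgG2a libraries. A feature as short as this gets a high TPM from few reads: its lowest value above 0 in any library was 66.2 TPM. It was at 0 in 15 of 27 libraries, while Actb, Gapdh, Rplp0, Cd3e and Ptprc were above 0 in all 27. Since the depth is unknown and genes in general use such as Mrpl3 (2 libraries) and Uqcrb (3 libraries) were also listed at 0 in some, no limit is given for it. Its fitted log2 difference in GBM is set by the pseudocount (-7.16 with 1, -9.81 with 0.1 and -4.53 with 10), so it is no measure of the size of a change and is not used further.

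**Figure D2:**
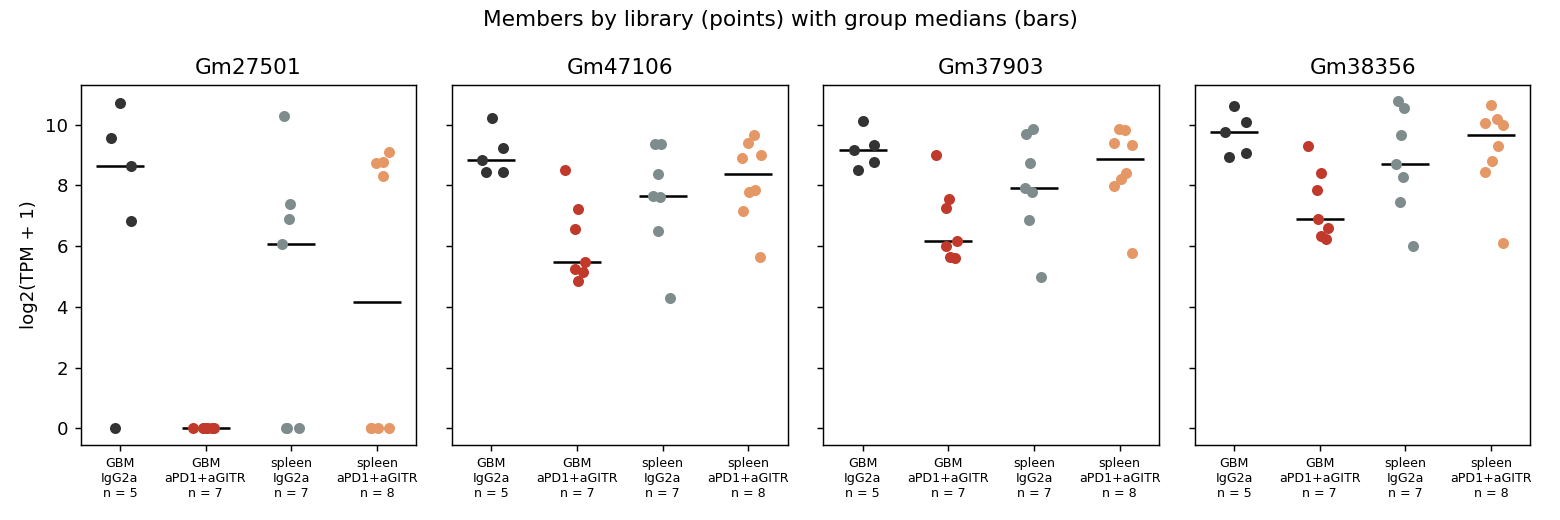
Level of each member in log2(TPM + 1), 1 point per library, with the group median as a bar, in 5, 7, 7 and 8 libraries. For the 3 longer members 6 of 7 treated GBM libraries lie below all 5 controls, while the splenic groups overlap.

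These GBM differences are the values by which the members were picked, so no test is given for them. The choice favors large falls, so the sizes and standard errors of these differences are descriptions only. Among 7848 features tested in GBM by their log2 difference, the 3 longer members held ranks 22 (Gm47106), 50 (Gm37903) and 64 (Gm38356) from the largest fall. The lower-after-treatment call (limma, unadjusted p under 0.05 and more than 2-fold) was made for 382 features, 4.87% of those tested, and the higher call for 1318, 16.8%. This balance depends on the scaling, with 735 higher and 490 lower calls after quantile normalization and 938 and 486 with TMM-type factors. No feature passed an adjusted p of 0.05, with 1749 at an unadjusted p under 0.05. Complete separation, with every treated library below every control, was seen for 33 features, 0.42%, and for none of the members. The median log2 difference of all features tested was 0.62, and it fell to 0.31 after quantile normalization and 0.34 with TMM-type factors. It was 0.018 over 40755 features with no filter and 0.36 without tumor_369_a. With those scalings the differences of the 3 longer members were between -3.27 and -2.37. Leaving out the control tumor_79_a and the treated tumor_73_b together gave -3.44 for Gm47106, -2.97 for Gm37903 and -2.85 for Gm38356. Without the control tumor_369_a, where the 4 members were highest among the GBM libraries, these were -2.60, -2.20 and -2.10. Without the treated tumor_73_a they were -2.68, -2.25 and -2.16.

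The splenic comparison was not used to pick the members and was tested. None of the 4 members passed a test there between the treatments, and the point estimates of the 3 longer ones lay above 0. Gm47106 spanned 18.6 to 661.4 TPM (median 199.6) after IgG2a and 48.6 to 813.6 TPM (median 353.2) after αPD1 + αGITR. The log2 difference was 0.58 (95% interval -0.95 to 2.11), with an exact permutation p of 0.491 and a limma adjusted p of 1.00. Splenic libraries of one group differed by more than 10-fold, and the intervals are wide.

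Gm37903 spanned 30.4 to 927.5 TPM (median 242.1) after IgG2a and 53.5 to 930.5 TPM (median 490.6) after treatment in the spleen, a log2 difference of 0.62 (95% interval -0.89 to 2.13, exact permutation p = 0.439). Gm38356 spanned 64.0 to 1750 TPM (median 413.9) and 68.3 to 1614 TPM (median 828.8), a log2 difference of 0.42 (95% interval -1.12 to 1.96, exact permutation p = 0.612). Both groups covered nearly the same range for each. Gm27501 was above 0 in 4 of 7 splenic libraries after IgG2a, at 66.2, 118.0, 166.3 and 1252 TPM, and in 4 of 8 after treatment, at 317.3, 426.9, 437.5 and 545.3 TPM. Its log2 difference of -0.01 (95% interval -3.44 to 3.41, exact permutation p = 1.0) carries little information. The intervals include or come close to a 2-fold change in either direction for each member, and the estimates of Gm47106 and Gm37903 were 0.29 and 0.34 with TMM-type factors and 0.03 and 0.12 without the control spleen_76_a. Those of Gm38356 were 0.13 and -0.043, a change of sign. With the number of features above 1 TPM as a covariate in limma, the estimates of Gm47106, Gm37903 and Gm38356 also turned negative, to -0.081, -0.021 and -0.28 (adjusted p = 1.00 each), so no direction is given for the members in the spleen. With 7 against 8 libraries the smallest p this test can give is 0.000155. Of 6634 splenic features tested by limma, 168 (2.53%) were called at the unadjusted threshold, 1.49% higher (99) and 1.04% lower (69), 168 had an unadjusted p under 0.05 and 0 passed the adjusted threshold. The balance turned over with the scaling, to 68 higher and 148 lower after quantile normalization and 67 and 149 with TMM-type factors. Complete separation, with each treated library under each control, was seen for 1 splenic feature, 0.0151%, and for no member.

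By group median the order of levels was the same for the 3 longer members: GBM after IgG2a, then spleen after αPD1 + αGITR, then spleen after IgG2a, then GBM after αPD1 + αGITR. The choice of members by a fall in GBM favors GBM after IgG2a standing above GBM after αPD1 + αGITR, so this part of the order is no separate result. The ranges of neighbours in this order overlapped for each member. Within a library the 3 members kept their own order. Gm38356 was above Gm37903 in 27 of 27 libraries, by a median ratio of 1.56, and Gm37903 was above Gm47106 in 26 of 27, by a median ratio of 1.29. The ratio of Gm38356 to Gm37903 stayed between 1.22 and 2.14, while the level of Gm38356 itself ran from 64.0 to 1750 TPM. These TPM are per unit of length and can be compared between features, within the limit set by the sharing of reads.

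The abundant repeat features moved with the members. In GBM the satellite repeat list took 26.9% ± 12.2 of TPM after IgG2a (SD, n = 5) and 7.28% ± 6.88 after αPD1 + αGITR (SD, n = 7), with an exact permutation p of 0.00758, two-sided. Gm10800 alone, the most familiar of these, was at 98095, 98733, 111215 and 116535 TPM in 4 controls and at 17174 TPM in the control tumor_79_a. After treatment it spanned 8748 to 71869 TPM with a median of 15107 TPM. Its log2 difference was -1.98 with a standard error of 0.48 (limma adjusted p = 0.0977, exact permutation p = 0.0202), and after quantile normalization the difference was -0.62. Of the 13 listed satellite features, 13 were called lower in GBM at the unadjusted threshold, where 4.87% of all features were, and none at the adjusted one, with a median log2 difference of -2.01 against 0.62 over all features. As repeats of related arrays they do not count as 13 separate observations.

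In the spleen the satellite list took 26.3% ± 25.0 (SD, n = 7) and 27.7% ± 18.1 (SD, n = 8) of TPM, with an exact permutation p of 0.892, and 0 of the 13 features were called, where 2.53% of all features were, so a count of 0 says little. The splenic log2 difference of Gm10800 was 0.58 (95% interval -1.17 to 2.33). The difference between tissues in the effect on Gm10800 was -2.56 on the log2 scale with a standard error of 0.96, and it did not pass adjustment over 8687 features (limma adjusted p = 0.317). The 10 most abundant features together, ribosomal RNA among them, took 54.0% ± 11.8 and 49.8% ± 8.51 of TPM in the 2 GBM groups (SD, n = 5 and 7, exact permutation p = 0.468). CT010467.1 itself took 39.2% ± 7.96 of TPM in GBM after treatment against 25.1% ± 7.38 after IgG2a (SD, n = 7 and 5), with a log2 difference of 0.68 (limma adjusted p = 0.0977, exact permutation p = 0.00505). That difference is about the median over all features, 0.62, and it was 0.30 with TMM-type factors. TPM sum to the same total in each library, so a larger share for one of these leaves less for the rest.

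**Figure D3:**
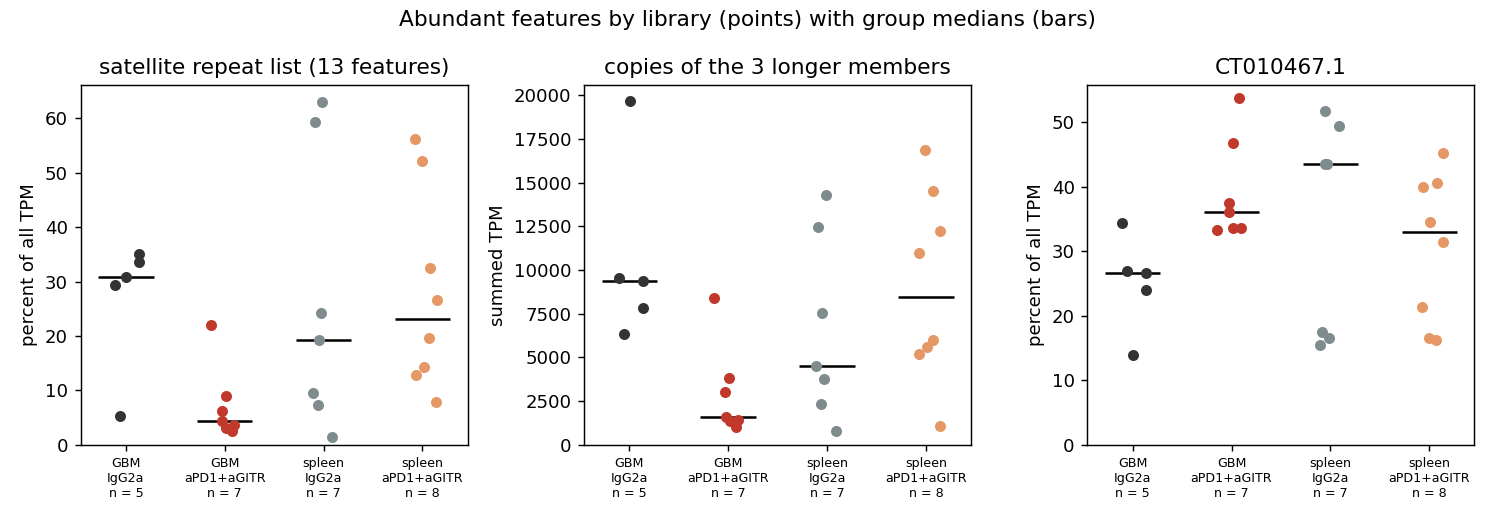
Percent of TPM in the 13 satellite features, summed TPM of the annotated copies of the 3 longer members, and percent of TPM in CT010467.1, 1 point per library with group medians as bars. The satellite share had group medians of 30.8% and 4.37% in GBM and 19.2% and 23.1% in the spleen, after IgG2a and αPD1 + αGITR.

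Scaled to Gm10800, the members differed less between the GBM groups. Gm37903 stood at 3.97, 5.51, 5.77, 11.4 and 21.1 TPM per 1000 TPM of Gm10800 in the controls and at 4.20 to 7.19, with a median of 5.82, in the treated libraries. Gm38356 stood at 4.85 to 28.6 (median 9.44) and 7.44 to 11.3 (median 8.51), and Gm47106 at 3.15 to 20.2 (median 5.16) and 2.48 to 5.06 (median 3.99). The 2 high ratios in each control set were those of tumor_369_a, where the members were high, and tumor_79_a, where Gm10800 was low. In the spleen the medians of this ratio for Gm37903 were 4.49 and 5.44.

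Across the 15 splenic libraries, which the choice of members did not use, the 3 longer members rose and fell with Gm10800. Pearson's r on log2(TPM + 1) was 0.90 for Gm47106, 0.91 for Gm37903 and 0.90 for Gm38356, each with a permutation p of 1e-05, the smallest that 100000 resamples can give, and an adjusted p of 2.67e-05 over the 16 relations computed. Spearman's rho was 0.79, 0.84 and 0.86 (permutation p = 0.00086, 0.0002 and 7e-05, adjusted p = 0.00229, 0.0008 and 0.00056). Without the 2 libraries farthest from the median of Gm10800 r was 0.80, 0.83 and 0.85.

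Within the groups r was 0.97, 0.97 and 0.95 over 7 libraries after IgG2a (exact permutation p = 0.00159, 0.00179 and 0.00238) and 0.77, 0.81 and 0.86 over 8 after treatment (exact permutation p = 0.0243, 0.0111 and 0.00399). The median r with Gm10800 of 6632 other features was -0.39, and a higher r was found for 62 of them (0.935%) in the case of Gm47106, for 47 (0.709%) in that of Gm37903 and for 69 (1.04%) in that of Gm38356. Of the 200 features with the highest r with Gm10800, 160 were Gm features, 85 were members or copies and 12 were satellite features, classes that overlap. The 6633 features examined held 833 Gm features and 127 members or copies, so the relation was not particular to the members. The points share their libraries and the common total, and their depth is unknown. Gm27501 gave an r of 0.58 (permutation p = 0.0197, adjusted p = 0.0286, and rho 0.64 with adjusted p = 0.019), with 7 of its 15 values at 0, and 530 other features (7.99%) had a higher r. That relation had an r of 0.73 after IgG2a (exact permutation p = 0.0464) and of 0.47 after treatment (exact permutation p = 0.23).

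The summed satellite list gave r between 0.88 and 0.90 for the 3 longer members and 0.58 for Gm27501. The number of features above 1 TPM, a measure of how much of the transcriptome a library covers, gave r of 0.75, 0.76 and 0.77 for Gm47106, Gm37903 and Gm38356 (adjusted permutation p = 0.00178, 0.00178 and 0.00158). For that measure the within-group values were 0.61 to 0.67 after IgG2a (exact permutation p of 0.11 to 0.141) and 0.88 to 0.91 after treatment. The share of the 10 most abundant features gave r between 0.17 and 0.35, with adjusted permutation p between 0.246 and 0.542. Without the 2 libraries farthest from the median of that share, r was 0.59 for Gm27501, 0.66 for Gm47106, 0.65 for Gm37903 and 0.67 for Gm38356, so the weak values rest on those libraries. In GBM the control with the fewest features above 1 TPM, tumor_369_a, had the highest value of all 4 members.

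**Figure D4:**
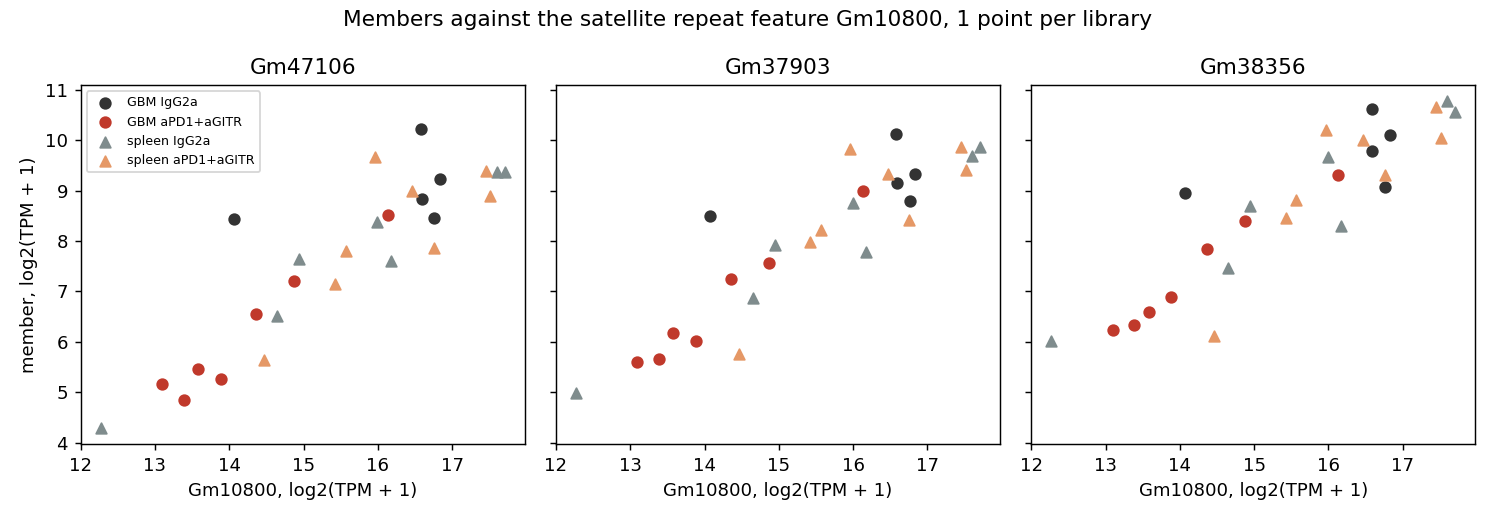
Level of the 3 longer members against Gm10800, both in log2(TPM + 1), 1 point per library, circles for GBM and triangles for spleen. The splenic points give r of 0.90, 0.91 and 0.90, and the GBM control tumor_79_a, with Gm10800 at 17174 TPM, sits above the rest.

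The features whose pattern over all 27 libraries was most like that of a member, among 8687 with a mean above 10 TPM in at least 1 group, were often models of the same repeat families. For Gm47106 these were Gm37903 (r = 0.992), Gm48541 and Gm47632 (both r = 0.990), and for Gm37903 they were Gm48541, Olfr839.ps1 and Gm47476 (r = 0.997 each). Gm38356 was nearest to Gm48401, Gm37903 and Gm47611 (r = 0.990 each). Of the 100 features most like each of these 3 members, 73 to 76 were members or copies of any of the 4 members, and none was a satellite feature. Gm27501 had no feature as close, and none of its nearest 3 was a copy of it: Gm45792 (r = 0.75), Gm37951 (0.73) and Gm21962 (0.72) came first, and of its nearest 100 features 48 were members or copies of any member and 11 were satellite features. Gm10800 held ranks 260, 253 and 249 for Gm47106, Gm37903 and Gm38356, with r of 0.89, 0.91 and 0.91, and rank 37 for Gm27501. These correlations are descriptions, since the libraries that picked the members enter them and copies share reads.

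The copies as a family followed the same course. The 137 copies of the 3 longer members in the table, the members not counted, summed to 6349 to 19655 TPM in IgG2a GBM (median 9386) and to 1024 to 8410 TPM in treated GBM (median 1581). In the spleen the sum spanned 779 to 14280 TPM (median 4510) and 1077 to 16860 TPM (median 8471). Of 106 copies that passed the filter on low values in GBM, 102 were called lower and none higher, against 4.87% lower over all features, with a median log2 difference of -2.08. This filter lets a copy in through the group where it is high. Over copies with a mean above 10 TPM in both GBM groups, a count taken after seeing the data, 63 of 66 were called lower and none higher, against 3.85% lower over all features. Of 103 copies tested in the spleen, none was called, where 2.53% of all features were, so that a count of 0 says little, and the median was 0.61 against 0.15 over all features. Copies and members divide the same reads, so these counts are a description of one signal and no separate support. The transcript Gm47578, which holds a sequence like each of the members, had a median of 539.6 TPM in IgG2a GBM and 98.7 TPM in treated GBM, and of 263.0 and 539.2 TPM in the spleen.

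**Figure D5:**
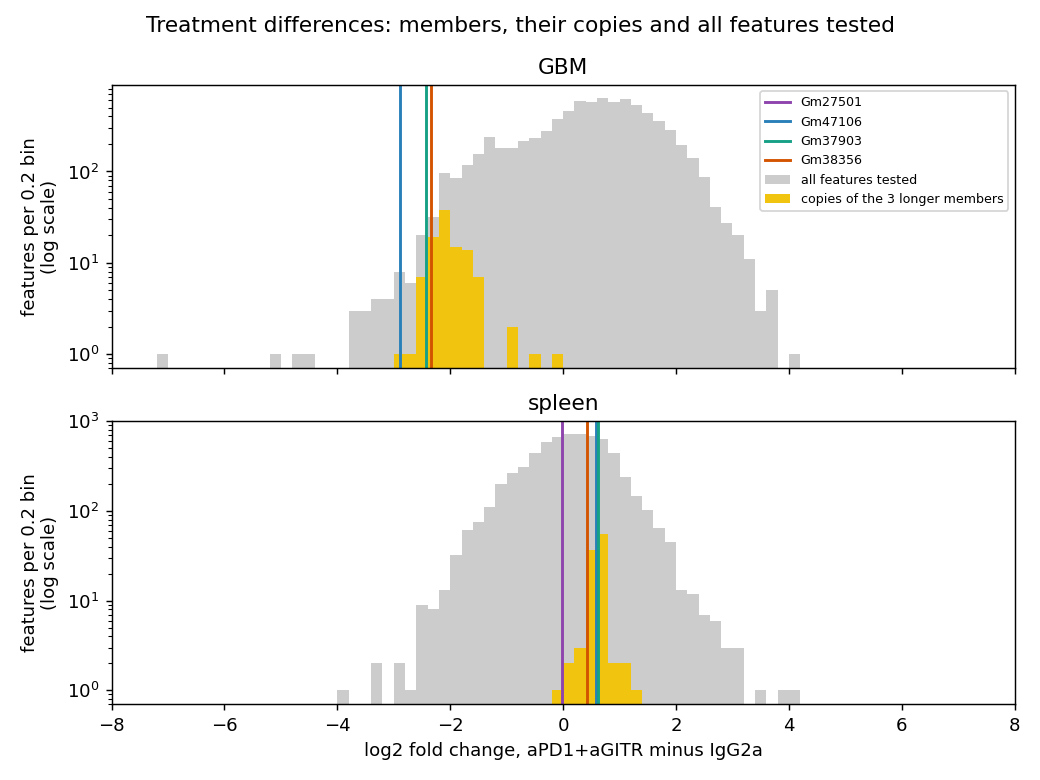
Number of features (log scale) by log2 fold change, αPD1 + αGITR minus IgG2a, in GBM and spleen, with all features tested in grey, copies of the 3 longer members in yellow and the members as lines, Gm27501 in the spleen only. Gm47106, Gm37903 and Gm38356 lie at -2.90, -2.43 and -2.33 in GBM and at 0.58, 0.62 and 0.42 in the spleen.

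The wider class of Gm models was also counted. Of 831 tested Gm features outside the members and the satellite list, 243 (29.2%) were called lower and 34 higher in GBM, against 4.87% lower and 16.8% higher over all features, with a median log2 difference of -1.21. With the copies also set aside, 156 of 736 (21.2%) were called lower and 34 higher, with a median of -1.10. The filter lets a feature of low level in through the group where it is high, so the counts were also taken, after seeing the data, over features with a mean above 10 TPM in both GBM groups. There 84 of 316 Gm features outside the members, the satellite list and the copies (26.6%) were called lower and 19 higher, against 3.85% and 15% over all features, with a median of -0.64. In the spleen 6 of 817 were called lower and 14 higher, near the 1.04% and 1.49% over all features. The summed level of the 1106 Olfr features, a class chosen after its values were seen and one that nasal neurons and not T cells are known to use, spanned 1032 to 4052 TPM (median 1188) in IgG2a GBM and 189 to 1149 TPM (median 349.4) in treated GBM. In the spleen the sum had medians of 753.7 TPM after IgG2a and 1109 TPM after treatment, with overlapping ranges. Several of the Olfr transcripts hold a copy of Gm38356.

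Of 9 listed long noncoding RNAs of known identity in the table, 6 passed the filter in GBM and 0 were called in either direction, where 21.7% of all features tested were called, so a count of 0 in so short a list says little. Their median log2 difference was 0.22, and -0.13 with TMM-type factors. Neat1, the scaffold of nuclear paraspeckles, had a log2 difference of 1.08 (limma adjusted p = 0.340). Kcnq1ot1, an imprinted antisense RNA under the filter, was at 3.68 ± 0.99 TPM (SD, n = 5) and 1.72 ± 0.96 TPM (SD, n = 7), a log2 difference of -0.84 (exact permutation p = 0.0101). Its transcript holds a copy of Gm38356 with 90.1% identity on the opposite strand. Malat1, a nuclear RNA, was at 1491 ± 1193 TPM (SD, n = 5) and 968.9 ± 511.9 TPM (SD, n = 7) in GBM, a log2 difference of -0.36 (limma adjusted p = 0.658). Gas5, the host gene of small nucleolar RNAs, was at 133.2 ± 146.4 and 130.7 ± 67.3 TPM (SD, n = 5 and 7), a log2 difference of 0.69 (limma adjusted p = 0.525). In the spleen 0 of 6 were called, where 2.53% of all features were, which says as little, and the median was 0.27.

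Of 4 genes around the members that passed the filter in GBM (Uqcrb, Mrpl3, Gm47103 and Ptprc), Gm47103 was called lower and Mrpl3 higher in treated GBM at the unadjusted threshold, where 4.87% and 16.8% of all features were. Mrpl3, whose span holds only the 24-base second exon of Gm47106, had a median of 27.4 TPM in IgG2a GBM and 75.4 TPM in treated GBM. Its 5 control values were 0 in tumor_369_a and tumor_79_a and 27.4, 31.3 and 46.1 TPM in the others, so its log2 difference in GBM of 2.62 (limma adjusted p = 0.186, exact permutation p = 0.0972) rests on those zeros and the pseudocount and is no measure of size. In the spleen the difference was -0.76 (limma adjusted p = 1.00). Gm47103, a processed pseudogene within the span of Gm47106, had medians of 66.2 and 12.6 TPM in GBM and of 30.8 and 55.2 TPM in the spleen. Gm47102, which covers the first exon of Gm47106 on the other strand, spanned 2.97 to 7.06 TPM in IgG2a GBM and 0.07 to 2.18 TPM in treated GBM, too low for the filter. Gm38077, the remaining overlapping model, was at or below 1 TPM on average in both GBM groups.

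Near Gm37903, Ptprc was at 92.1 ± 53.9 TPM (SD, n = 5) and 99.1 ± 37.5 TPM (SD, n = 7) in GBM, a log2 difference of 0.19 (limma adjusted p = 0.806) that was -0.18 with TMM-type factors. Uqcrb, 313701 bases from Gm27501, had a log2 difference of -0.28 in GBM (limma adjusted p = 0.759). Nr5a2, Veph1 and Shox2 were under the filter in both GBM groups. In bulk libraries fewer cells of a type and less RNA per cell cannot be told apart. Foxp3, the defining Treg factor, was at 176.1 ± 44.7 TPM (SD, n = 5) after IgG2a and 310.2 ± 92.6 TPM (SD, n = 7) after treatment in GBM, a log2 difference of 0.79 (limma adjusted p = 0.219, exact permutation p = 0.0152). This is close to the median of 0.62 over all features, and it was 0.61 after quantile normalization and 0.41 with TMM-type factors. In the spleen it was at 170.5 ± 109.9 and 167.4 ± 106.9 TPM (SD, n = 7 and 8).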

How the data were processed

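The authors sorted Treg cells, made Smart-Seq2 libraries with Nextera XT and sequenced them on a NextSeq500 instrument. By the study's methods and the submitters' processing notes (bcl2fastq, TopHat2, mm10), reads were aligned with Tophat and TPM computed with RSEM; versions and the annotation are not given in the sources used here. The deposited table holds TPM plus 1, another form than TPM itself, for 53801 features. The added 1 was subtracted, after which all columns sum to the same total within rounding. The table has 1 column of values with no name, which was not used, and of 28 libraries described 27 were analysed. Counts are not part of the values used here, so depth is unknown and precision rests on the spread between libraries. Features at 0 are given as listed.

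The members and all lists were chosen with earlier results of these data known. The named genes were the members, genes overlapping them or else the nearest protein-coding gene on each side, the satellite list (Gm10800, Gm10801, Gm10715, Gm10717, Gm10718, Gm10719, Gm10720, Gm10721, Gm10722, Gm11168, Gm17535, Gm21738, Gm26870), 10 long noncoding RNAs, the Gm class, and the 3 features most like each member. Copies of the members, Gm47578, Gm27341, CT010467.1 and the Olfr class were added after the data were seen. Log2(TPM + 1) was compared with limma 3.58.1 in R 4.3.3 (trend, two-sided, Benjamini-Hochberg adjustment) for features with a mean above 10 TPM in at least 1 of the groups compared, and by exact permutation. limma was tested on simulated data. Copies were found with blastn 2.17.0 in GENCODE vM21 transcripts. TMM-type factors (30% and 5% trims, unweighted) were computed directly. Further tools were Python 3.11.15, numpy 2.4.6, pandas 2.3.3, scipy 1.17.1 and matplotlib 3.10.9. The series' design text says that samples come from different mice; label numbers repeated within and between groups are unexplained, and were not used, so p-values measure the spread between libraries. Alternatives were other pseudocounts (0.1 and 10), filters and scalings, the number of features as a covariate, a fit over all groups, and leaving out each library.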

Additional observations from a re-analysis of the deposited data

Results flagged for a closer look

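In 32 sets of libraries (4 groups for each of 8 measures), 4 values stood apart from their own group by Dixon's gap criterion. Chance alone marks about 1 in 20 such sets. Gm37903 in the treated splenic library spleen_73_a was at 5.77 on the log2(TPM + 1) scale, under the range of 7.98 to 9.86 in the other 7. Gm10800 in the IgG2a GBM library tumor_79_a was at 14.07 on the same scale, under 16.58 to 16.83 in the other 4. The satellite repeat share of that library was 5.37%, against 29.5% to 35.0% in the others. The satellite share of the treated GBM library tumor_73_b was 22.1%, against 2.60% to 8.97% in the other 6.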

How the results depend on the processing

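No paired analysis was possible because the treated and IgG2a groups of a tissue share no label number. In GBM 1700 features were called; 970 were with a pseudocount of 10, 935 with a mean above 10 TPM in every group, and 1133 to 2014 when 1 library was left out, the lowest without the IgG2a library tumor_369_a. The adjusted threshold, passed by 0 features in GBM, was passed by 79 with the number of features as a covariate, 21 without tumor_79_a, 103 without tumor_73_b and 145 without both, the last an alternative chosen after seeing the data. In the spleen 168 were called; 269 were in a fit over all 4 groups, 591 with no filter, 78 with a pseudocount of 10, 57 with the filter in every group, and 130 to 214 when 1 library was left out. The causes were not tested, apart from the number of features tested, which the filters change.

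The GBM differences of the 3 longer members stayed negative in each alternative run. Leaving out 1 library gave -3.29 to -2.60 for Gm47106, -2.80 to -2.20 for Gm37903 and -2.66 to -2.10 for Gm38356. Gm10800 went from -1.98 to -0.62 after quantile normalization. In the spleen no member passed the threshold with the other pseudocounts, filters or scalings, the ratio of mean TPM, the covariate, the fit over all 4 groups or 1 library left out. With 1 library left out the splenic differences spanned -0.74 to 0.97 for Gm27501, 0.03 to 0.94 for Gm47106, 0.12 to 1.03 for Gm37903 and -0.043 to 0.86 for Gm38356, with exact permutation p between 0.176 and 0.969. Gm27501 was at 0.19 with a pseudocount of 10, a change of sign. With the number of features as a covariate, Gm47106 was at -0.081, Gm37903 at -0.021 and Gm38356 at -0.28, each a change of sign, and Gm27501 at -1.13; the cause was not tested.

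The GBM satellite share differed by -24.9 to -17.5 percentage points when 1 library was left out (exact permutation p of 0.00303 to 0.0216). The splenic one differed by -2.70 to 7.58, and the share of the 10 most abundant features by -8.47 to -1.46 in GBM and -7.46 to 0.54 in the spleen. After rescaling without the 10 most abundant features, the splenic relation of their share to Gm37903 (r = 0.54) and Gm38356 (r = 0.57) passed the threshold, with adjusted permutation p of 0.045 and 0.0391. The unknown depth limits what values of 0 can show.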
